A study of Mus musculus with 8 samples.

Results

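The genes described here are 36 markers of macrophages and other myeloid cells, out of 22180 genes measured in glomeruli isolated from mouse kidneys. The members were taken from a list of gene symbols, and all 36 were on the array. Each was read from the probe set that carried its symbol alone and had the highest mean over all arrays, and each member had only 1 such probe set. One further probe set names Lilrb4a together with its close paralog and was not used. Values are log2 expression values from 1 Affymetrix array per sample, made with RMA (robust multi-array averaging). An increase of 1 therefore stands for a doubling of the signal.

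The 8 arrays fell into 3 groups of mice aged 13 weeks, all of which had received doxycycline for 3 weeks from an age of 8 weeks. The control group (2 arrays) is labelled as control genotype with doxycycline only. The Tln1 vehicle group (3 arrays) carried Tln1 Pod-rtTA TetO-Cre and received vehicle for 2 weeks after doxycycline, and the Tln1 VPA group (3 arrays) carried the same alleles and received valproic acid, an inhibitor of histone deacetylases, for the same time. By its name, the line carries a Cre recombinase that doxycycline switches on in podocytes, the epithelial cells of the filter, and that acts on Tln1, the gene of the integrin-binding protein talin 1. The labels give neither the Tln1 allele nor the alleles of the control mice, and do not say that control mice received vehicle, so genotype and vehicle cannot be told apart in comparisons with control. They also do not say that arrays stand for separate mice, so p values speak only of the variation among these arrays, part of which may be technical. The question the design poses for these genes is how the signal of myeloid cells in the glomerular isolate differs after the podocyte change and after valproic acid.

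Macrophages arise from embryonic progenitors or from blood monocytes, and their identity depends on the transcription factor PU.1, encoded by Spi1, and on the growth factor receptor encoded by Csf1r. They sense antibody-coated material through Fc receptors, and the activating ones signal through the adapter Fcer1g, while Tyrobp serves TREM2 and related receptors. They digest what they take up in lysosomes and with oxygen radicals from the phagocyte NADPH oxidase. In the kidney, resident macrophages lie mostly in the interstitium, few are found in healthy glomeruli, and monocytes enter glomeruli in many forms of glomerular injury.

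Tln1 itself stood at 8.97 and 8.64 in the controls, 8.95, 8.95 and 8.604 with vehicle and 8.76, 8.88 and 8.59 with valproic acid. The Tln1 vehicle arrays thus overlapped control. These values do not check the genotype labels, since other glomerular cells also make Tln1 and it is not known here whether the probe set lies in the deleted part. By clustering on correlation the arrays formed 2 sets that cut across the groups. The first set comprised 5 arrays, those numbered 1 in every group together with Tln1 vehicle 2 and Tln1 VPA 2. The second comprised the remaining 3, which are control 2, Tln1 vehicle 3 and Tln1 VPA 3. Pairwise correlations over all genes were 0.990 to 0.995 within the sets and 0.966 to 0.979 between them, and the labels name no batch. The mean of 6 podocyte markers was 7.09 to 7.88 in first-set arrays and 8.56 to 9.21 in second-set arrays, and the mean of 8 proximal tubule markers was 11.67 to 12.07 and 10.60 to 11.06. The mean of 3 Y-linked genes was 4.85 to 6.996 in the first-set Tln1 arrays, 3.57 in control 1 and 2.56 to 2.72 in the second set. The arrays thus differed in podocyte, tubular and Y-linked signal as well as in group, and the part of these in the values below was not tested. In the sentences below, the values of a gene are given in the order of the array numbers within each group. Fewer cells of a type and less RNA per cell cannot be told apart in such bulk samples. Of the 36 members, 22 had a mean over all arrays that did not exceed the median gene mean of 4.92. Adgre1, the gene of the macrophage marker F4/80, was among these, with values from 3.03 to 4.91. The label of the list was therefore borne by low array signals for most of its members.

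PU.1 binds DNA at a purine-rich core known as the PU box, spelled GAGGAA, and many myeloid promoters carry it, so the promoters of the members were searched for these letters on both strands. RefSeq promoter windows were available for 26 of the 36 members, and the 250 bases before the annotated transcription start were used (build GRCm38.p6). The hexamer was present in at least 1 window of 13 of these 26 genes. By window, 15 of 30 member windows (50%) held it, beside 23.3% of the 32851 windows of all genes. The longer form GAGGAAGT, which contains the hexamer, was in 3.33% of the member windows, that of Fcgr4 alone, and in 2.44% of all windows. The members with the hexamer were Ptprc, Cd53, Laptm5, Cd68, Itgam, Ctss, Aif1, Fcgr1, Fcgr3, Fcgr4, Clec7a, Mrc1 and Trem2. The windows of 4 genes are shown because they held the hexamer and were among those with higher values after valproic acid, chosen after their values were seen. The windows of Mpeg1, Cybb and Fcer1g lacked the hexamer, and these genes had changes of 1.23, 0.86 and 0.67 after valproic acid against vehicle. Capitals mark the hexamer, which reads TTCCTC where it lies on the opposite strand.
Cd68 (chr11:69666171-69666420, minus strand): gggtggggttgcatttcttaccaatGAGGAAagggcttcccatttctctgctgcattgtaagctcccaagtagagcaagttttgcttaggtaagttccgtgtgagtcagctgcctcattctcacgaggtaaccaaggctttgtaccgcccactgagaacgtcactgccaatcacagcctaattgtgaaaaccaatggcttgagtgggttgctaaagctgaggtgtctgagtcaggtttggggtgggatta
Fcgr3 (chr1:171059404-171059653, minus strand): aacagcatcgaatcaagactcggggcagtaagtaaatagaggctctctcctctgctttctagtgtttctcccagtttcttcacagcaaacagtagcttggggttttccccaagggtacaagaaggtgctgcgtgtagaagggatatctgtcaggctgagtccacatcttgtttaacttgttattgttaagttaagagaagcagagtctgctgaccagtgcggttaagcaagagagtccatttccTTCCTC
Ctss (chr3:95526536-95526785, plus strand): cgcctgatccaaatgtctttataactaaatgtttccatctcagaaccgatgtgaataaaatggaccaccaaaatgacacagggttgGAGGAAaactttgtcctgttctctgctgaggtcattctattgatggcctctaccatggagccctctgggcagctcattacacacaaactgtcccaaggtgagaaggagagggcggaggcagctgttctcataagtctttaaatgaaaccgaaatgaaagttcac
Fcgr4 (chr1:171018676-171018925, plus strand): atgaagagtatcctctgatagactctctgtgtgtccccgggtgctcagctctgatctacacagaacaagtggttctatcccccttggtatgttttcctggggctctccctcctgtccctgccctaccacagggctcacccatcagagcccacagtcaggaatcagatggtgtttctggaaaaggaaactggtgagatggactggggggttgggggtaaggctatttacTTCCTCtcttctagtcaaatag
Counted from the transcription start, the hexamer began at -225 in Cd68, -6 in Fcgr3, -164 in Ctss and -22 in Fcgr4. It lay on the gene's own strand in Cd68 and Ctss and on the opposite strand in Fcgr3 and Fcgr4. Members with the hexamer include both the genes with higher values after valproic acid, such as Cd68 and Ctss, and Mrc1 and Trem2, whose values were not higher. A match is a run of letters in this window and does not show that PU.1 binds there.

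Across the list, the members were higher after valproic acid than after vehicle in most cases. Of the 36 members, 31 had a positive change in Tln1 VPA against Tln1 vehicle, beside 51.3% of all genes, and the median change was 0.27 beside 0.00 over all genes. None was called at an adjusted p below 0.05 (limma, Benjamini-Hochberg over 22180 genes), where 0% of all genes were called. At an unadjusted p below 0.05, 3 members were higher and 0 lower, beside 0.834% and 0.428% of all genes. These were Fcgr3, Cd68 and Cd52. With the array set as a block, 12 of the 36 members were higher at an unadjusted p below 0.05 and 0 lower, beside 3.32% and 2.11% of all genes, again with no member called (smallest adjusted p = 0.800, limma). With the replicate number as a block, 13 members were higher and 0 lower at an unadjusted p below 0.05, beside 1.98% and 1.08% of all genes, and 0 were called. Whether same-numbered arrays belong together beyond their shared array set is not known here.

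**Figure D1:**
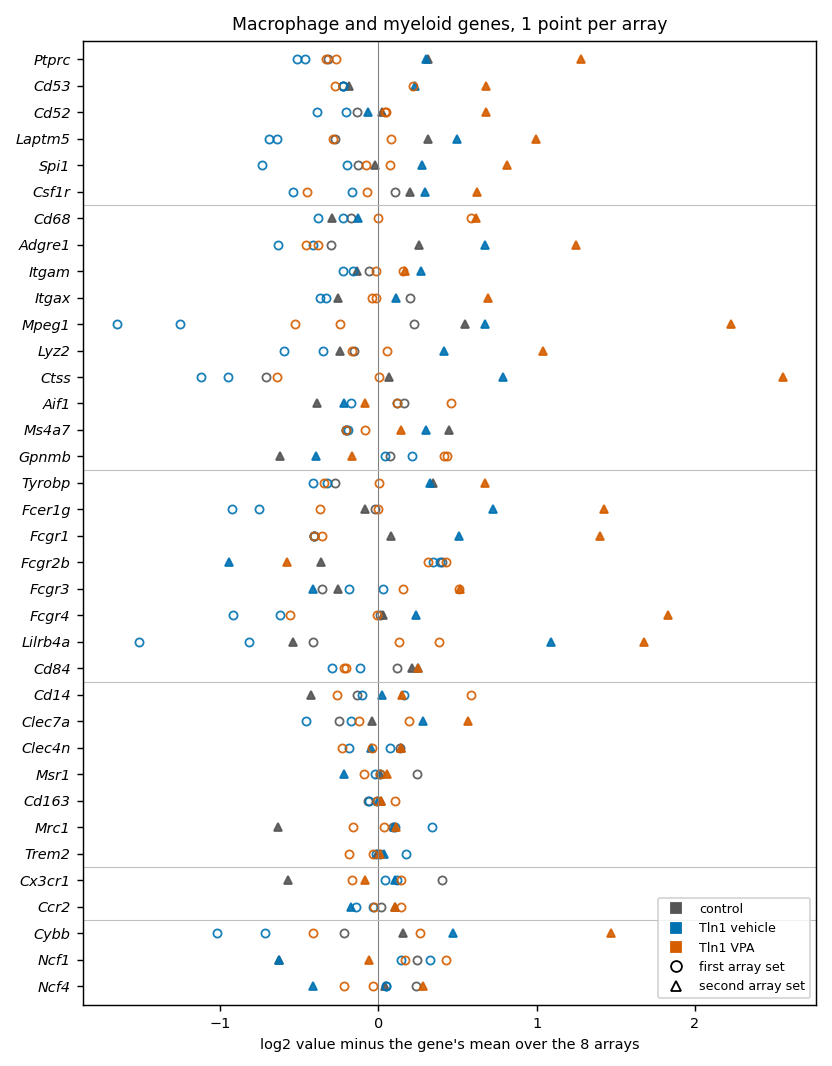
Values of the 36 members, 1 row per gene and 1 point per array. The x axis is the log2 value minus the gene's own mean over the 8 arrays, colours give the group, open circles the first and filled triangles the second array set, and grey lines part the roles. Tln1 VPA 3 lies farthest to the right for 21 of the 36 genes, and for Fcgr2b the 3 triangles lie below the 5 circles.

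Much of the height of these values lay in a single array. Tln1 VPA 3 was the highest of the 8 arrays for 21 of 36 members (58.3%), beside 7.04% of all genes. Tln1 vehicle 2 was the lowest for 13 members (36.1%, all genes 10.01%) and Tln1 vehicle 1 for 7 (19.4%, all genes 5.98%). The mean over the members was 4.64 in both control arrays. With vehicle it was 4.43, 4.35 and 4.85, and with valproic acid 4.76, 4.58 and 5.35. Within the first set, both Tln1 VPA arrays thus lay above both Tln1 vehicle arrays, and within the second set Tln1 VPA 3 lay above Tln1 vehicle 3. Without Tln1 VPA 3, 24 members were higher and 12 lower, with a median of 0.13 beside 0.05 over all genes. In that setting 62.2% of all genes had a change above 0, so the members' split lay near that of all genes. There, 2 members, Cd68 and Fcgr3, were higher at an unadjusted p below 0.05 (all genes 1.35%) and 0 lower (all genes 0.451%). In that case Tln1 vehicle 3 is the only second-set array of the pair. In the blocked fit without Tln1 VPA 3, 28 were higher and 8 lower (median 0.18, all genes 51.1% above 0), and 5 members were higher at an unadjusted p below 0.05 (Cd52, Laptm5, Cd68, Gpnmb and Fcgr3), beside 3.49% of all genes, and 0 lower (all genes 2.29%). In the first set alone, 29 members were higher (all genes 51.6%), 7 lower and the median was 0.20, with 10 members at an unadjusted p below 0.05, all higher, beside 4.16% of all genes higher and 3.60% lower. In the second set each group has 1 array and no test is possible. There, 31 members were higher (all genes 44.2%) and 4 lower, and the median was 0.48 beside 0 over all genes. In both sets alike, 27 members were higher (all genes 22.4%) and 2 were lower, Trem2 and Cx3cr1 (all genes 20.4%).

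**Figure D2:**
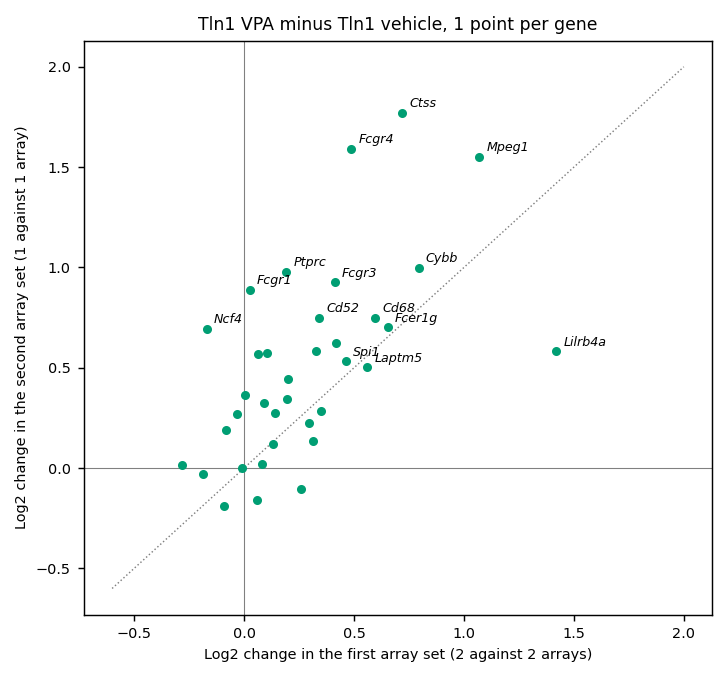
Log2 change of Tln1 VPA minus Tln1 vehicle for the 36 members, with the first array set on the x axis (2 against 2 arrays) and the second on the y axis (1 against 1 array); the dotted line marks equal changes. Of the points, 27 lie above 0 on both axes, and Ctss, Fcgr4 and Mpeg1 lie highest on the y axis.

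The 6 lineage-defining and pan-leukocyte genes all had positive changes after valproic acid, from 0.17 for Csf1r to 0.54 for Laptm5, and did so in both array sets. Ptprc, which encodes the pan-leukocyte phosphatase CD45, stood at 4.96 and 5.59 in the controls, 4.76, 4.82 and 5.58 with vehicle and 4.95, 5.01 and 6.56 with valproic acid. The second-set arrays were the 3 highest, with Tln1 VPA 3 far above the rest, and the groups overlapped. Its change was 0.45 (SE 0.46), with 0.19 within the first set and 0.98 within the second, and -0.07 without Tln1 VPA 3. Spi1, the gene of PU.1, stood at 4.73 and 4.83 in the controls, 4.66, 4.12 and 5.13 with vehicle and 4.93, 4.78 and 5.66 with valproic acid. Within each set the Tln1 VPA arrays were above the Tln1 vehicle arrays, and the change was 0.49 (SE 0.31), with 0.46 within the first set and 0.53 within the second and 0.21 without Tln1 VPA 3. Csf1r, the receptor for the macrophage growth factors CSF1 and IL-34, stood at 5.84 and 5.94 in the controls, 5.20, 5.57 and 6.04 with vehicle and 5.29, 5.67 and 6.36 with valproic acid. Its groups overlapped and its change of 0.17 (SE 0.30) was smaller than its SE. The change was 0.09 within the first set and 0.33 within the second, and -0.13 without Tln1 VPA 3.

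Cd52, which encodes a small glycosylated surface peptide of leukocytes, was 1 of the 4 members whose Tln1 VPA arrays all exceeded every Tln1 vehicle array (all genes 1.98%; 0 members lay fully below, all genes 1.57%). The other 3 were Cd68, Fcgr3 and Ccr2. Cd52 stood at 4.37 and 4.53 in the controls, 4.12, 4.30 and 4.44 with vehicle and 4.55, 4.55 and 5.19 with valproic acid. The change was 0.48 (SE 0.19), with 0.34 within the first set and 0.75 within the second, unadjusted p = 0.0417 and adjusted p = 1.00 (limma), and 0.26 without Tln1 VPA 3. Cd53, a tetraspanin of leukocytes, stood at 4.94 and 4.98 in the controls, 4.94, 4.94 and 5.40 with vehicle and 5.38, 4.89 and 5.84 with valproic acid, with its highest values in Tln1 VPA 3 and Tln1 vehicle 3 and a change of 0.28 (SE 0.25), or 0.05 without Tln1 VPA 3. Laptm5, a lysosomal membrane protein of blood cells, had a change of 0.54 (SE 0.42), or 0.17 without Tln1 VPA 3, which was 0.54 (SE 0.14, unadjusted p = 0.00727, adjusted p = 0.82, limma) with the array set as a block.

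Among 10 surface and lysosomal markers of macrophages, 9 had positive changes after valproic acid, and only Ms4a7 did not (-0.01). Cd68, a lysosomal glycoprotein that is widely used to stain macrophages, stood at 5.66 and 5.54 in the controls, 5.60, 5.45 and 5.70 with vehicle and 6.41, 5.83 and 6.45 with valproic acid. All 3 Tln1 VPA arrays were above every other array, including both controls, and the second set did not stand apart. The change was 0.65 (SE 0.18), a 1.57-fold difference, with unadjusted p = 0.00798 and adjusted p = 1.00 (limma). It was 0.60 within the first set and 0.75 within the second, and 0.54 without Tln1 VPA 3 (unadjusted p = 0.0288, limma). Adgre1 stood at 3.36 and 3.92 in the controls, 3.25, 3.03 and 4.34 with vehicle and 3.28, 3.21 and 4.91 with valproic acid. Here the 3 second-set arrays were highest and the 5 first-set arrays lay within 3.03 to 3.36. Its change of 0.26 (SE 0.52) was smaller than its SE, with 0.10 within the first set and 0.57 within the second. It was -0.30 without Tln1 VPA 3, where Tln1 vehicle 3 is the only second-set array of the pair.

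Mpeg1, the gene of the pore-forming protein perforin-2 of phagocytes, had the widest span of the group and stood at 4.79 and 5.11 in the controls, 2.91, 3.31 and 5.24 with vehicle and 4.32, 4.04 and 6.79 with valproic acid. Tln1 vehicle 1 and 2 were lowest and Tln1 VPA 3 was highest, and the other 5 arrays lay between. The change was 1.23 (SE 0.83), with 1.07 within the first set and 1.55 within the second and 0.36 without Tln1 VPA 3. With the array set as a block it was 1.23 (SE 0.41, unadjusted p = 0.0212, adjusted p = 0.89, limma). Ctss, which encodes the lysosomal protease cathepsin S that trims the invariant chain of MHC class II, stood at 5.39 and 6.17 in the controls, 5.15, 4.98 and 6.89 with vehicle and 6.11, 5.46 and 8.66 with valproic acid. The Tln1 VPA 3 value was the highest and the change was 1.07 (SE 0.85), with 0.72 within the first set and 1.77 within the second and 0.11 without Tln1 VPA 3. Lyz2, lysozyme M, stood at 5.22 and 5.14 in the controls, 5.03, 4.78 and 5.79 with vehicle and 5.43, 5.21 and 6.42 with valproic acid, and its change was 0.49 (SE 0.36), or 0.12 without Tln1 VPA 3. Its near-identical relative Lyz1 may share signal with its probes.

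The remaining markers of this role were lower in signal or differed less between groups. Itgax, the integrin chain CD11c of dendritic cells and some macrophages, stood at 4.48 and 4.02 in the controls, 3.94, 3.91 and 4.39 with vehicle and 4.24, 4.26 and 4.97 with valproic acid. Only Tln1 VPA 3 lay above control 1, and the change was 0.41 (SE 0.25), with 0.33 within the first set and 0.58 within the second and 0.17 without Tln1 VPA 3. Gpnmb, a transmembrane glycoprotein of lipid-laden and injury-associated macrophages that other kidney cells can also make, stood at 3.93 and 3.23 in the controls, 4.07, 3.90 and 3.47 with vehicle and 4.27, 4.29 and 3.69 with valproic acid. In contrast to most members, it was lower in the second set, and within each set Tln1 VPA arrays were above Tln1 vehicle arrays. Over all arrays its change was 0.27 (SE 0.26), and 0.27 (SE 0.08, unadjusted p = 0.00966, adjusted p = 0.86, limma) with the array set as a block. Itgam, the integrin chain CD11b, was at 0.14 (SE 0.15), Aif1, the calcium-binding protein IBA1, at 0.26 (SE 0.20), and Ms4a7, a tetraspan protein of macrophages, at -0.01 (SE 0.22). None of these last 3 changes had an unadjusted p below 0.05, and Itgam and Ms4a7 had opposite signs in the array sets.

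Of the 8 Fc receptors, signalling adapters and paired receptors, 7 had positive changes after valproic acid, and Cd84, an adhesion receptor of leukocytes, lay at -0.01. Fcgr3, the gene of the low-affinity activating receptor for immunoglobulin G, had the smallest p of all members and stood at 4.04 and 4.14 in the controls, 4.21, 4.43 and 3.99 with vehicle and 4.90, 4.55 and 4.91 with valproic acid. The 3 Tln1 VPA arrays were above all 5 others. Its change was 0.58 (SE 0.16), a 1.50-fold difference, with unadjusted p = 0.00647 and adjusted p = 1.00 (limma). It was 0.41 within the first set and 0.93 within the second, and 0.52 without Tln1 VPA 3 (unadjusted p = 0.0234, limma). Averaged over the groups, the second set minus the first was -0.02 for Fcgr3, a mean over groups that differed in direction, with Tln1 vehicle 3 below Tln1 vehicle 1 and 2 and control 2 above control 1.

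Fcgr4, an activating receptor for IgG2 subclasses, stood at 4.01 and 4.03 in the controls, 3.38, 3.09 and 4.24 with vehicle and 3.999, 3.44 and 5.83 with valproic acid. Its Tln1 VPA 3 value lay above all others, Tln1 vehicle 1 and 2 were low, and the change was 0.86 (SE 0.59), or 0.15 without Tln1 VPA 3. Fcgr1, the high-affinity receptor, stood at 3.29 in control 1, 3.29 in both first-set Tln1 vehicle arrays and 3.34 and 3.29 in Tln1 VPA 1 and 2. It was higher only in the second set, where control 2 read 3.78, Tln1 vehicle 3 read 4.21 and Tln1 VPA 3 read 5.10. Fcgr2b, the inhibitory Fc receptor that B cells and some endothelial cells also make, ran the other way between the sets and stood at 9.42 and 8.65 in the controls, 9.36, 9.40 and 8.07 with vehicle and 9.44, 9.33 and 8.44 with valproic acid. The 5 first-set arrays lay within 9.33 to 9.44, all above the second set, and the change after valproic acid was 0.12 (SE 0.43). These receptors are close relatives in sequence, and how far their probe sets share signal is not known here.

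Within each Tln1 group the adapters had their highest value in the second-set array, as did several receptors above. Fcer1g, the common gamma chain of Fc receptors, stood at 6.11 and 6.05 in the controls, 5.21, 5.38 and 6.86 with vehicle and 6.13, 5.76 and 7.56 with valproic acid. Tln1 vehicle 1 and 2 were the lowest arrays, Tln1 VPA 3 and Tln1 vehicle 3 the highest, and the change was 0.67 (SE 0.56), with 0.65 within the first set and 0.70 within the second and 0.13 without Tln1 VPA 3. Tyrobp, the adapter DAP12 of TREM2 and related receptors, stood at 4.31 and 4.93 in the controls, 4.26, 4.17 and 4.91 with vehicle and 4.59, 4.24 and 5.25 with valproic acid. Its 3 second-set arrays were highest, and its change was 0.25 (SE 0.32), with 0.20 within the first set and 0.35 within the second and -0.03 without Tln1 VPA 3. Lilrb4a, an inhibitory receptor of myeloid cells, stood at 5.76 and 5.64 in the controls, 5.36, 4.67 and 7.27 with vehicle and 6.56, 6.31 and 7.85 with valproic acid. Every Tln1 VPA array was above both controls and above Tln1 vehicle 1 and 2, while Tln1 vehicle 3 reached into the range of the Tln1 VPA arrays. The change was 1.14 (SE 0.67), with 1.42 within the first set and 0.58 within the second and 0.67 without Tln1 VPA 3. With the array set as a block it was 1.14 (SE 0.44, unadjusted p = 0.0353, adjusted p = 0.89, limma).

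**Figure D3:**
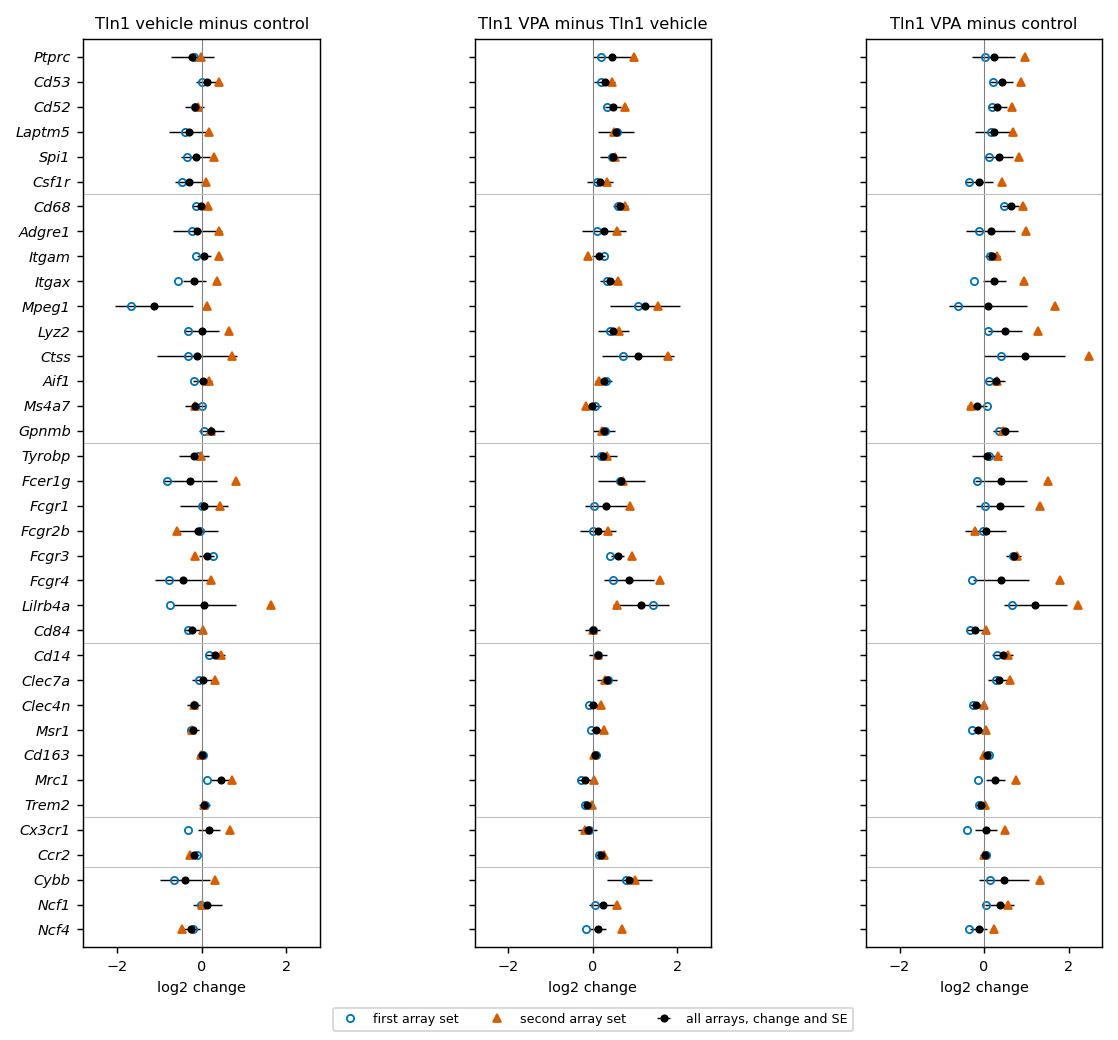
Log2 changes of the 36 members in the 3 comparisons. Black points with bars give the change over all arrays and its SE, open circles the change within the first and triangles the change within the second array set, and grey lines part the roles. In Tln1 VPA minus Tln1 vehicle 31 black points lie above 0, in Tln1 vehicle minus control 14 do.

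The 7 pattern recognition, lectin and scavenger receptors had small changes after valproic acid, from -0.18 for Mrc1 to 0.33 for Clec7a and a median of 0.06. In this role 5 members were higher and 2 lower, and 3 were higher in both sets. Mrc1, the mannose receptor of resident and alternatively activated macrophages, which some endothelial cells also make, stood at 5.21 and 4.49 in the controls, 5.46, 5.23 and 5.22 with vehicle and 5.16, 4.96 and 5.24 with valproic acid. The arrays lay close together apart from control 2, which was lowest, and the change was -0.18 (SE 0.20). Trem2, a lipid-sensing receptor of macrophages that signals through Tyrobp, stood at 4.64 and 4.62 in the controls, 4.80, 4.61 and 4.67 with vehicle and 4.44, 4.59 and 4.64 with valproic acid. All values lay within 4.44 to 4.80, and the change was -0.13 (SE 0.11).

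Cd14, the co-receptor for bacterial lipopolysaccharide, stood at 4.78 and 4.49 in the controls, 5.08, 4.82 and 4.94 with vehicle and 5.50, 4.66 and 5.07 with valproic acid. Tln1 VPA 1 was highest and control 2 lowest, and the change after valproic acid was 0.13 (SE 0.22). Clec7a, the beta-glucan receptor dectin-1, was at 0.33 (SE 0.24), or 0.15 without Tln1 VPA 3, and 0.33 (SE 0.13, unadjusted p = 0.0404, adjusted p = 0.89, limma) with the array set as a block. Clec4n, the lectin dectin-2, stood at 3.26 and 3.26 in the controls, 3.19, 2.94 and 3.07 with vehicle and 3.08, 2.89 and 3.26 with valproic acid. Msr1, the class A scavenger receptor, stood at 3.31 and 3.08 in the controls, 3.08, 3.05 and 2.85 with vehicle and 3.08, 2.98 and 3.12 with valproic acid, and Cd163, the haemoglobin scavenger receptor, ranged from 3.30 to 3.47. These last 3 genes had low values in every array, where little can be said of a change.

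Of the 2 chemokine receptors, 1 was higher and 1 lower after valproic acid. Cx3cr1, the fractalkine receptor of resident macrophages and of patrolling monocytes, stood at 6.44 and 5.47 in the controls, 6.08, 6.15 and 6.15 with vehicle and 5.87, 6.18 and 5.96 with valproic acid. The 6 Tln1 arrays lay within 5.87 to 6.18, between the higher control 1 and the lower control 2, and the change after valproic acid was -0.12 (SE 0.23). Ccr2, the receptor that draws inflammatory monocytes from the blood, stood at 3.47 and 3.55 in the controls, 3.42, 3.31 and 3.28 with vehicle and 3.59, 3.42 and 3.55 with valproic acid. The Tln1 VPA arrays did not overlap the Tln1 vehicle arrays, but the difference was small and all values were low, at 0.19 (SE 0.10), with unadjusted p = 0.115 and adjusted p = 1.00 (limma).

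Of the 3 subunits of the phagocyte NADPH oxidase, Cybb, the membrane-bound catalytic subunit, stood at 5.41 and 5.79 in the controls, 4.91, 4.61 and 6.11 with vehicle and 5.89, 5.22 and 7.10 with valproic acid. Tln1 vehicle 1 and 2 were the lowest and Tln1 VPA 3 the highest. The change was 0.86 (SE 0.53), with 0.79 within the first set and 0.998 within the second and 0.35 without Tln1 VPA 3. With the array set as a block it was 0.86 (SE 0.27, unadjusted p = 0.0152, adjusted p = 0.88, limma). The cytosolic subunits were at 0.23 (SE 0.31) for Ncf1 and 0.12 (SE 0.18) for Ncf4, neither with an unadjusted p below 0.05, and for Ncf1 the second-set arrays were the 3 lowest.

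In Tln1 vehicle against control, the members were divided in direction. Of the members, 14 were higher and 22 lower (all genes: 55.6% above 0), with a median of -0.10 beside 0.02 over all genes. None was called (limma, adjusted p = 1.00 throughout; 0% of all genes called), and 0 members had an unadjusted p below 0.05, beside 0.780% of all genes higher and 0.672% lower. With the array set as a block, 17 were higher and 19 lower, again with 0 at an unadjusted p below 0.05 (all genes 3.01% and 4.30%). The sets differed in direction. In the first, 27 members were lower and 7 higher (median -0.18, all genes 46% above 0). In the second, 24 were higher and 11 lower (median 0.18, all genes 45.4% above 0). In each set the rest were equal. In both sets alike, 4 members were higher (all genes 20.8%) and 8 lower (all genes 22.5%). The first set has 1 control array and the second 1 array per group. When the first set was fitted alone, so that the spread comes from the Tln1 arrays only, 5 members were lower at an unadjusted p below 0.05 (Mpeg1, Itgax, Fcer1g, Cd84 and Msr1), beside 6.70% of all genes, and 0 were higher (all genes 5.35%).

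The 6 members with the smallest p in that comparison were Mrc1, Msr1, Ccr2, Clec4n, Cd14 and Mpeg1, and all had an adjusted p of 1.00 (limma). Mrc1 was at 0.45 (SE 0.22), with 0.13 within the first set and 0.73 within the second, and all 3 Tln1 vehicle arrays exceeded both controls. Without control 2, the lowest array, its change was 0.09. Cd14 was at 0.31 (SE 0.24), also without overlap. These were the 2 members whose Tln1 vehicle arrays all lay above control (all genes 4.78%), and 3 members lay below (all genes 3.59%). The 3 lower members were Msr1 at -0.20 (SE 0.13), Ccr2 at -0.17 (SE 0.12) and Clec4n at -0.19 (SE 0.15), all low in signal. Mpeg1 was at -1.13 (SE 0.93), but -1.68 within the first set and 0.13 within the second. Of the defining markers, Cd68 was at -0.01 (SE 0.20), Adgre1 at -0.10 (SE 0.58), Csf1r at -0.29 (SE 0.34), Spi1 at -0.14 (SE 0.34), Ptprc at -0.22 (SE 0.51) and Lyz2 at 0.02 (SE 0.40). The adapters Tyrobp and Fcer1g were at -0.17 (SE 0.36) and -0.27 (SE 0.62). The receptors Cx3cr1 and Trem2 were at 0.17 (SE 0.26) and 0.07 (SE 0.12). None of these had an unadjusted p below 0.05.

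Against control, the Tln1 VPA arrays had higher values for 29 members and lower values for 7 (all genes: 56.8% above 0), with a median of 0.26 beside 0.02 over all genes. None was called (limma, 0% of all genes), and 2 members were higher at an unadjusted p below 0.05 (all genes 1.23%) and 0 lower (all genes 0.640%). The median was 0.06 in the first set, with 22 higher (all genes 47.8%) and 14 lower. In the second set it was 0.63, with 31 higher (all genes 44.3%) and 2 lower. Without Tln1 VPA 3 the split was 19 higher and 17 lower, beside 63.2% of all genes above 0, and the median 0.0026 beside 0.07 over all genes, with 3 members higher at an unadjusted p below 0.05 (Cd68, Gpnmb and Fcgr3, all genes 2.17%) and 0 lower (all genes 0.816%). With the array set as a block, the median was 0.36, and 10 members were higher at an unadjusted p below 0.05 (all genes 4.06%) and 0 lower (all genes 4.06%). With the block and without Tln1 VPA 3, 25 members were higher and 11 lower (median 0.11, all genes 49.9% above 0), and at an unadjusted p below 0.05 2 were higher (Gpnmb and Fcgr3, all genes 4.83%) and 2 lower (Msr1 and Ncf4, all genes 4.39%). When the first set was fitted alone, where control is 1 array and the spread comes from the Tln1 arrays only, 2 members were higher at an unadjusted p below 0.05 (Gpnmb and Fcgr3, all genes 6%) and 4 lower (Itgax, Cd84, Msr1 and Ncf4, all genes 6.71%). In both sets alike, 19 members were higher (all genes 22.4%) and 1 was lower (all genes 22.9%). The median of the list over control thus moved with Tln1 VPA 3 in both fits.

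The smallest p values against control were those of 2 genes that were higher in both sets. Fcgr3 was at 0.70 (SE 0.18), with unadjusted p = 0.00443 and adjusted p = 1.00 (limma). It was 0.69 within the first set and 0.77 within the second, and 0.64 without Tln1 VPA 3 (unadjusted p = 0.0146, limma). Cd68 was at 0.63 (SE 0.20), with unadjusted p = 0.0151 and adjusted p = 1.00 (limma). It was 0.46 within the first set and 0.91 within the second, and 0.52 without Tln1 VPA 3 (unadjusted p = 0.0446, limma). Both were among the 5 members whose Tln1 VPA arrays all exceeded both controls (all genes 5.57%; 0 members lay below, all genes 3.98%). The other 3 were Lilrb4a at 1.21 (SE 0.75), Cd52 at 0.31 (SE 0.22) and Itgam at 0.20 (SE 0.17). Cd14 at 0.44 (SE 0.24), Gpnmb at 0.50 (SE 0.29) and Cd53 at 0.42 (SE 0.27) completed the 6 smallest p values together with Lilrb4a, and their groups overlapped. Among the other defining genes no change had an unadjusted p below 0.05. Csf1r was at -0.12 (SE 0.34), Adgre1 at 0.16 (SE 0.58), Ptprc at 0.23 (SE 0.51) and Spi1 at 0.34 (SE 0.34). Of the lysozyme and adapter genes, Lyz2 was at 0.51 (SE 0.40), Tyrobp at 0.07 (SE 0.36) and Fcer1g at 0.40 (SE 0.62). The receptors Cx3cr1, Ccr2, Mrc1 and Trem2 were at 0.05 (SE 0.26), 0.01 (SE 0.12), 0.27 (SE 0.22) and -0.07 (SE 0.12). The comparison shares its arrays with both others, so its values are not independent of theirs.

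The array sets themselves parted the members into those with more and those with less signal in the second set, averaged over the groups. Second-set values were higher for 26 members and lower for 10, with a median difference of 0.34, beside 33.8% of all genes higher and a median of -0.14. The largest positive differences were those of Ctss (1.82), Mpeg1 (1.69), Lilrb4a (1.18) and Adgre1 (1.14). The negative ones were led by Fcgr2b (-1.01), Ncf1 (-0.69) and Gpnmb (-0.61). The sets were found from all genes, these included, so this is a description.

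Genes that work with the members were read from lists outside the 36, none of whose genes was called in any comparison. Counts below are over the genes of each list that were analysed here. The 3 chains of complement C1q, which tissue macrophages make, were all higher after valproic acid than after vehicle. C1qb stood at 6.36 and 6.35 in the controls, 5.24, 5.09 and 6.59 with vehicle and 6.23, 5.61 and 7.97 with valproic acid, with Tln1 VPA 3 highest and Tln1 vehicle 1 and 2 lowest, and a change of 0.96 (SE 0.62). Of the others, C1qa was at 0.59 (SE 0.25) and C1qc at 0.52 (SE 0.23). In Tln1 vehicle against control the 3 chains were lower over all arrays (median -0.36) and within the first set (median -0.58). Within the second set 2 were higher and 0 lower (median 0.09). Itgb2, the beta chain that pairs with Itgam and Itgax, stood at 5.48 and 4.52 in the controls, 5.06, 4.80 and 5.17 with vehicle and 5.57, 5.36 and 6.26 with valproic acid. All 3 Tln1 VPA arrays exceeded the Tln1 vehicle arrays, with a change of 0.72 (SE 0.31), unadjusted p = 0.0484 and adjusted p = 1.00 (limma). The other 2 genes of that list lay at 0.15 for Itgal and -0.01 for Itgad. Of 11 genes of ITAM signalling, the kinase pathway below Fcer1g and Tyrobp, 9 were higher and 2 lower (median 0.12), from -0.13 for Btk to 0.33 for Lcp2. Of 9 myeloid transcription factors other than Spi1, 6 were higher and 3 lower (median 0.11), from -0.08 for Klf4 to 0.34 for Cebpb. Their median was 0.004 within the first set and 0.41 within the second. The other subunits of the NADPH oxidase lay between 0.08 for Rac1 and 0.29 for Rac2 (3 of 3 higher).

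Ligands and origins of macrophages gave mixed values. Of 6 CSF1 receptor ligands and other myeloid growth factors and receptors, 5 were higher and 1 lower (median 0.20). The changes ran from -0.07 for Csf3 to 0.37 for Csf2rb, with medians of 0.24 within the first set and -0.01 within the second. The CSF1 receptor ligands Csf1 and Il34 were at 0.15 (SE 0.27) and 0.29 (SE 0.29). Of 8 chemokines that attract monocytes, 6 were higher and 2 lower (median 0.10), from -0.14 for Ccl8 to 0.97 for Ccl5. Ccl5 stood at 5.20 and 5.39 in the controls, 5.20, 5.04 and 5.49 with vehicle and 5.80, 5.62 and 7.20 with valproic acid, with all Tln1 VPA arrays above all others and a change of 0.97 (SE 0.39). Of 7 genes linked to monocyte-derived phagocytes, 4 were higher and 3 lower (median 0.28), from -0.15 for Thbs1 to 0.86 for Fn1, where fibronectin, Fn1, is also made by mesangial cells and fibroblasts. Of 8 genes linked to resident macrophages, 6 were higher and 2 lower (median 0.08), from -0.15 for Cd81 to 0.25 for Folr2. The sets differed in direction, with 7 higher and 1 lower within the first (median 0.13). Within the second, 2 were higher and 6 lower (median -0.11). Several of these genes, such as Apoe and Cd81, are widely expressed.

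Markers of other immune cells were read beside these values, since the members are not all specific to macrophages. After valproic acid against vehicle, 7 of 12 were higher and 5 lower (median 0.07) for neutrophil markers, from -0.21 for Mpo to 0.43 for Retnlg. For dendritic cells, a list of mostly conventional markers with Siglech of plasmacytoid cells, 5 of 8 were higher and 3 lower (median 0.07), from -0.17 for Siglech to 0.30 for Cd209a. For T and NK cells 7 of 10 were higher and 3 lower (median 0.04), from -0.09 for Cd3d to 0.14 for Cd4. For B and plasma cells 4 of 6 were higher and 2 lower (median 0.04), from -0.07 for Pax5 to 0.25 for Cd79b. For mast cells and basophils 0 of 5 were higher and 5 lower (median -0.07), from -0.12 for Kit to -0.0037 for Cma1. Of the mast cell and basophil markers, 1 was higher and 4 lower within the first set, and 3 were higher and 1 lower within the second. The mean level of the neutrophil list was 3.44 to 3.46 in the controls, 3.37 to 3.46 with vehicle and 3.41 to 3.56 with valproic acid, and, in the same order, that of the T and NK list 3.44 to 3.63, 3.45 to 3.60 and 3.56 to 3.63. The dendritic cell list lay at 4.48 to 4.60, 4.41 to 4.58 and 4.56 to 4.59. The B and plasma cell list lay at 3.90 to 4.38, 3.80 to 4.04 and 3.88 to 4.09, and the mast cell list at 3.78 to 3.85, 3.78 to 3.82 and 3.58 to 3.84. The values of such lists do not show whether these cells were present, and their part in the values of the members was not tested.

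**Figure D4:**
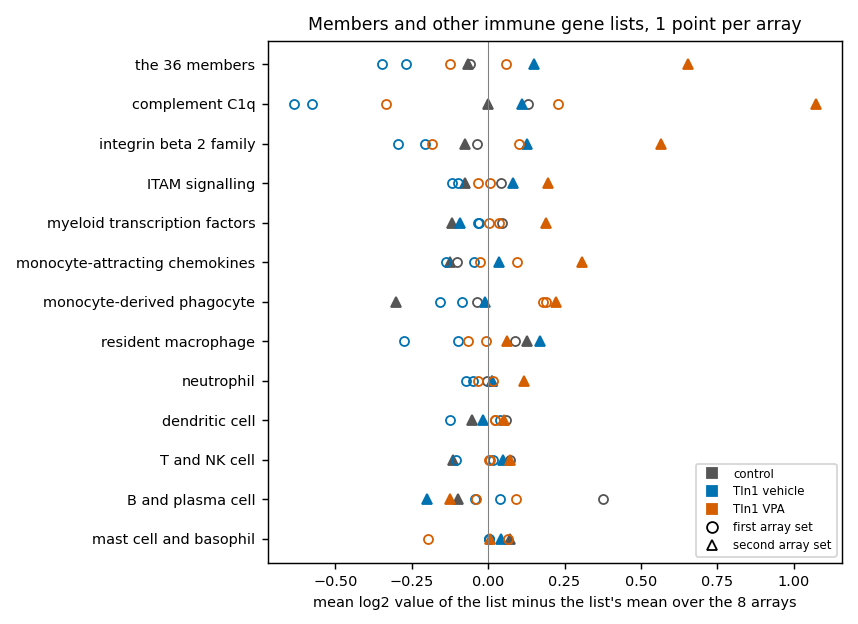
Mean log2 value of each gene list minus the list's own mean over the 8 arrays, 1 point per array, with colours for the groups, open circles for the first and triangles for the second array set. Tln1 VPA 3 lies farthest to the right for the members, C1q, the integrin beta 2 family, ITAM signalling and myeloid transcription factors. It does so too for the monocyte-attracting chemokines, monocyte-derived phagocytes and neutrophils. For T and NK cells it lies level with control 1, and for the remaining lists another array lies farthest to the right. The arrays lie close together for the neutrophil, dendritic, T and NK cell lists.

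Markers of the cells native to the isolate were also read. In Tln1 VPA against Tln1 vehicle, 6 of 6 podocyte markers were lower (median -0.34), 6 of 6 endothelial markers were lower (median -0.46) and 4 of 4 mesangial markers were lower (median -0.21). Of 8 proximal tubule markers, 7 were lower (median -0.09), from -0.91 for Kap to 0.06 for Miox. Within the first set 7 of these were lower (median -0.20), and within the second 3 were lower and 5 higher (median 0.14). In both sets alike, 6 of 6 podocyte, 6 of 6 endothelial and 2 of 4 mesangial markers were lower. In Tln1 vehicle against control, 4 of 4 mesangial markers were higher in both sets (median over all arrays 0.90). There 6 of 6 endothelial markers were higher over all arrays (median 0.46), with medians of -0.10 within the first set and 1.27 within the second. Of the podocyte markers 2 were higher and 4 lower (median -0.08), with medians of 0.68 within the first set and -0.27 within the second. Of the tubule markers 2 were higher and 6 lower (median -0.13, mean 0.22), from -0.31 for Aqp1 to 2.72 for Kap. In Tln1 VPA against control, 4 of 4 mesangial markers were again higher in both sets (median 0.35). Of the endothelial markers 1 was higher and 5 lower (median -0.08), with medians of -0.40 within the first set and 0.30 within the second. Of the tubule markers 1 was higher and 7 lower (median -0.21, mean 0.01), from -0.44 for Aqp1 to 1.81 for Kap. The podocyte markers were 6 of 6 lower over all arrays (median -0.40), with medians of 0.25 within the first set and -0.71 within the second. None of these markers was called. The mean endothelial level was 9.34 to 10.20 with vehicle, with Tln1 vehicle 3 highest, and 9.15 to 9.29 with valproic acid. The part of such shifts in the makeup of the isolate in the values of the myeloid genes was not tested.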

How the data were processed

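The 8 samples were each measured on 1 Affymetrix array. The deposited values are log2 expression values per probe set, which the authors made with RMA. RMA and limma are both listed, without versions, in the submitters' processing notes. The array annotation named 1 gene for 23521 of 41345 probe sets, several for 1814 and none for 16010, and only the first kind was used. For each of 22180 genes the probe set with the highest mean was kept. No filter on low values was applied, so all 36 members were tested. Whether all arrays were normalised in a single run is not given in the sources used here, and scanner files were not used here.

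Groups were compared with limma 3.58.1 in R 4.3.3 (eBayes after lmFit, with a term for group and no other, all 8 arrays in 1 fit), with Benjamini-Hochberg adjustment over all genes and a threshold of 0.05. The fit was tested on simulated data. Array sets were found by average-linkage clustering of the correlations between arrays. Alternatives were the array set or the replicate number as a block, array weights, other probe set rules, median centring, quantile normalisation, a filter at the median level, trended and robust eBayes, the 2 groups alone, each set alone and each array left out. The array set as a block without Tln1 VPA 3 was added after the data had been seen. Deviations from the group means of same-numbered vehicle and valproic acid arrays correlated over genes at 0.570, 0.609 and 0.787. Same-numbered arrays of these groups also lie in the same array set, so the correlations do not show that the numbers pair the arrays. For the comparisons with control, 1 of 2 pairs correlated negatively, and there control 2 lies in the other array set. Members, gene lists and tests were chosen with earlier results of these data known. Members given in full are the 6 with the smallest p in each comparison and a roster of 12 defining genes. Precision is limited by the small number of arrays per group, but not by that alone. A fit with group as its only term leaves the difference between the array sets in its residual spread. Adding a term for the array set lowered the SE in Tln1 VPA against Tln1 vehicle from 0.42 to 0.14 for Laptm5. For Cd68 the SE moved only from 0.18 to 0.16. Genes at an unadjusted p below 0.05 in this comparison rose from 280 to 1205 of 22180 (limma).

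Promoter windows came from RefSeq (GRCm38.p6).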

Additional observations from a re-analysis of the deposited data

How the results depend on the processing

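No member was called in any comparison under any alternative that had a test, including the replicate block (0 members in each comparison). The median change of the members in Tln1 VPA against Tln1 vehicle was positive under every alternative. It ran from 0.13 without Tln1 VPA 3 to 0.49 without Tln1 VPA 2 among single arrays left out. With either block it stayed at 0.27, since the blocks are balanced over these groups and cannot alter the change. The median in Tln1 vehicle against control was 0.18 in the second array set alone, where each group has 1 array, against -0.10 over all arrays, and -0.26 with the replicate block. It ran from -0.22 without Tln1 vehicle 3 to -0.00059 without Tln1 vehicle 2. The labels state no pairing of arrays, and deviations of same-numbered control and vehicle arrays correlated at 0.609 and -0.591. With the replicate block, 9 members were higher and 27 lower in vehicle against control. Of these, 1 was higher and 12 lower at an unadjusted p below 0.05 (limma, all genes 5.65% and 2.59%). In Tln1 VPA against control the replicate block gave 20 higher and 16 lower, with 6 and 3 at an unadjusted p below 0.05 (all genes 6.94% and 2.88%). The median in Tln1 VPA against control was 0.63 in the second set alone against 0.26 over all arrays, and 0.05 with the replicate block. With single arrays left out it ran from 0.0026 without Tln1 VPA 3 to 0.41 without Tln1 VPA 2. The causes of these differences were not tested. For the members given in full, the sign turned in 6 of 296 alternative values after valproic acid against vehicle, 35 of 298 against control and 26 of 263 for vehicle against control. Many of these values could not turn. The probe set rules, the level filter, trended and robust eBayes and the 2 groups alone leave a member's change as it was. After valproic acid against vehicle, both blocks do so too. The counts are therefore no measure of how stable the signs are. Leaving out a control array leaves 1 control, which is then assumed to vary like the other groups. Signals near the bottom of the range, as for Adgre1, Ccr2, Clec4n and Msr1, limit how small a change can be seen.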
